A study of Mus musculus with 8 samples.

Results

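Wnt signalling genes were examined in RNA of mouse uterine epithelium labelled control or conditional knockout (cKO) of Smad2 and Smad3. The SMAD2 and SMAD3 proteins, which were not measured here, carry TGF-beta and activin signals to the nucleus. The set holds 48 genes chosen by symbol: Wnt ligands, their receptors, the R-spondin and LGR axis, the cytoplasmic and nuclear core of the pathway, its feedback genes and its secreted inhibitors. All 48 were found among the 24346 gene symbols of the deposited tables. The series has 8 libraries, 3 labelled control and 5 labelled Smad2/3 cKO, called cKO below. In cKO mice both copies of each gene carry loxP sites around internal exons (the genotype Smad2flox/flox;Smad3flox/flox;Pgr-cre), and Cre is driven by the progesterone receptor gene from a knock-in allele. Controls and cKO were kept on one mixed C57BL/6/129S6/SvEv background. The sources used here do not give the alleles of the controls, nor age, cycle stage or how epithelium was separated. The labels list the ovary, oviduct, mammary gland and pituitary gland beside the uterus as sites of Pgr-cre expression. Whether libraries are from different animals is not stated, so p-values measure the spread between libraries, some of which may be technical.

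Wnt proteins are secreted lipid-modified ligands that bind Frizzled receptors together with LRP5 or LRP6. In the canonical branch this stops the destruction complex of Axin, APC and GSK3 from degrading beta-catenin, which then enters the nucleus and acts with TCF and LEF factors on target genes. Several targets, such as Axin2, Rnf43 and Notum, feed back to dampen the signal, while R-spondins acting through LGR receptors protect Frizzled proteins from removal by RNF43 and ZNRF3. In the mouse uterus, Wnt4, Wnt5a and Wnt7a are known to take part in gland formation.

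Levels are given as scaled FPKM, the deposited fragment level per transcript length and library size (FPKM) after a small scaling between libraries. Because they are per length, they can be set side by side between genes. No further adjustment between genes was made here, so such comparisons are approximate. Of the 48 members, 34 had a mean of at least 1 in control and 30 in cKO, and 35 met the filter for testing (at least 1 in at least 3 libraries). A gene was called when its adjusted p was below 0.05 (limma over all 11315 genes tested, Benjamini-Hochberg adjustment). Among the tested members 6 were lower in cKO (Fzd10, Fzd2, Fzd7, Lgr4, Rnf43 and Axin2) and 2 were higher (Porcn and Wnt11). Of these 8, Wnt11 met the filter through 3 cKO libraries and no control, and Fzd2 and Axin2 met it through the 3 controls, with 1 and 2 cKO libraries at 1 or more. These 3 entered the test through the group where they are high, and their calls are not independent of the filter. The other 5 met it within each group. Over all tested genes 6.98% were lower and 7.27% higher, 14.3% in all, and these shares are the background of these counts. The 8 called members were 22.9% of the 35 tested. The members' median log2 fold change was -0.31, with 28 negative and 7 positive, against -0.0050 over all tested genes. With TPM, where the median of all tested genes moved to -0.20, the members' median was -0.59, and 9 members were lower and 1 higher. With TPM 10.0% of the members' calls and 23.5% of all calls were in the higher direction, in place of 25.0% and 51.02%. Without control 2 the members' counts were 3 lower and 1 higher, without control 3 they were 3 and 0, and without cKO 3 they were 10 and 1. Without cKO 2 or cKO 5 they were 5 and 1, when stromal and muscle markers were a covariate 4 and 0, and without cKO 1 and cKO 2, whose titles follow a different numbering from the main title series of the other 6 libraries, 6 and 1. Without control 1 they were 7 and 2, and without cKO 4 they were 5 and 3. Over all genes, lower and higher calls were 186 and 238 of 11190 without control 2, and 176 and 243 of 11180 without control 3. They were 892 and 935 of 11166 without cKO 3, and 305 and 357 of 11315 with stromal and muscle markers as covariate. They were 437 and 578 of 11186 without control 1, and 592 and 718 of 11166 in the main title series alone. Without cKO 2, cKO 4 and cKO 5 they were 739 and 758, 672 and 810, and 618 and 618. The log2 fold changes below are cKO minus control of scaled FPKM + 1, which understates the change of low genes, and ± after them is the standard error of the fit.

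**Figure D1:**
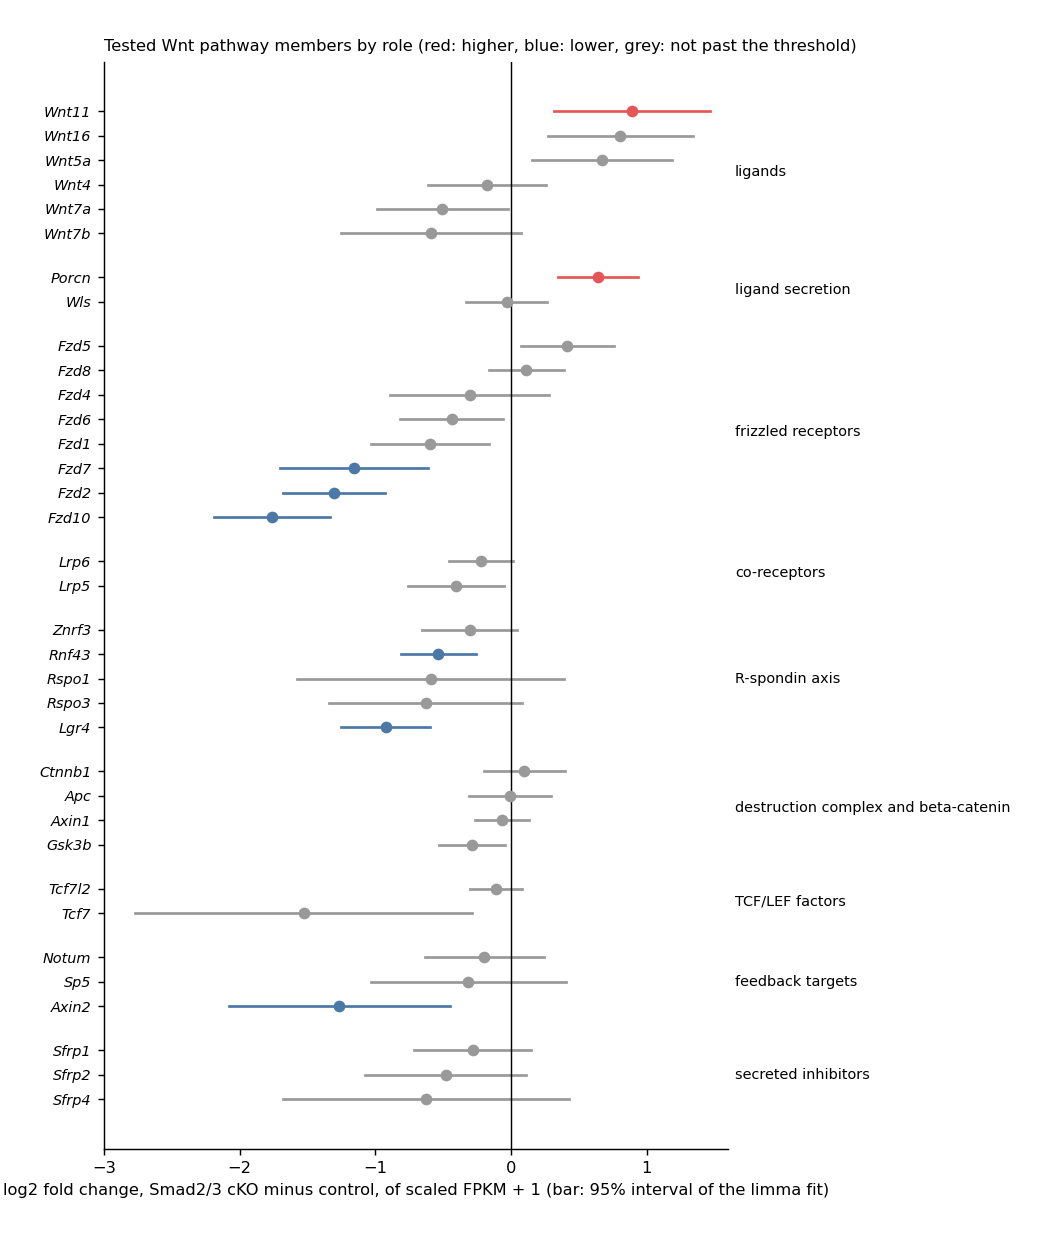
Log2 fold change (x axis, cKO minus control, of scaled FPKM + 1) of the 35 tested members, grouped by role, with bars for the 95% interval of the limma fit; red and blue mark the 2 higher and 6 lower members. The lower members lie among the Frizzled receptors, the R-spondin axis and the feedback genes, and Fzd10 is farthest to the left at -1.76.

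The libraries had an estimated 44.2 to 55.5 M mapped fragments. Smad2 was lower in all cKO libraries (3.03 to 4.02 against 5.69 to 6.35), while Smad3 overlapped (20.6 to 42.6 against 25.6 to 31.5), and both gene values include exons outside the deleted segments. The 10 epithelial markers summed to 5247 to 5737 scaled FPKM in control and 4345 to 7147 in cKO, above the sum of every other marker list in every library. Stromal fibroblast markers (14 genes) summed to 428 in control 1, 242 and 282 in the other controls and 157 to 332 in cKO, and none of the 14 was at 0 in any library. Smooth muscle markers (10 genes) summed to 337 in control 1 against at most 109 elsewhere, all 10 were highest in control 1, and Myocd was at 0 in at least 1 library. Endothelial markers (7 genes) summed to 13.7 in control 1 and to 4.26 to 10.2 in the others. Of 5 gland markers, Foxa2 and Sox17 had all 5 cKO libraries above the controls, while Spink3 and Prss29 stayed below 0.1 in every library. Cxcl15 was near 0 too, at 0.00845 to 0.131 in control and 0 to 0.0364 in cKO. The list summed to 8.73 to 10.8 in control and 16.5 to 20.4 in cKO, nearly all of it from Foxa2 and Sox17. The 10 leukocyte markers summed to 336 to 509 in control and to 346 in cKO 4 but 1253 to 2016 in the other cKO libraries. S100a8 and S100a9 made up most of these sums, with 200.3 to 377 in control and 275 to 1849.7 in cKO. The other 8 summed to 97.8 to 139 in control and 71.1 to 167 in cKO, with overlap. Among them, Ptprc (1.55 to 2.83 in control, 3.03 to 10.2 in cKO) and Retnlg (0.709 to 1.57 and 2.39 to 76.5) had every cKO library above every control. The rest of the 8 overlapped, and Cd68, the largest of them in control, was at 80.7 to 118 in control and 52.1 to 101 in cKO. In bulk RNA, fewer cells of a type and less RNA per cell cannot be told apart. The part of these cell types in the results below was not tested, except where a value with stromal and muscle markers as covariate or without control 1 is given. No control has a title in the numbering of cKO 1 and cKO 2.

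The upstream sequences of 6 of the 8 called members are shown because these genes changed in the same comparison; those of Fzd2 and Porcn are not shown here. RefSeq promoter windows (GRCm38.p6) were found for 29 of the 48 members, and for 26 a window began at the start of a deposited transcript. The 250 bases before the start, all on the + strand here, are given in lower case, with capitals marking a TCF/LEF word. The word searched was CTTTGAA, with AT, TA or TT also allowed as its final letters, on both strands.
Fzd7, chr1:59481897-59482146: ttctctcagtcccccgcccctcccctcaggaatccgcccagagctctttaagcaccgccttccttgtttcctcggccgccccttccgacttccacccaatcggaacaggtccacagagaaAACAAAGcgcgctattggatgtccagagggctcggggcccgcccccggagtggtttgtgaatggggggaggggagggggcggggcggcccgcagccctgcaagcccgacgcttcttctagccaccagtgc
Fzd10, chr5:128600856-128601105: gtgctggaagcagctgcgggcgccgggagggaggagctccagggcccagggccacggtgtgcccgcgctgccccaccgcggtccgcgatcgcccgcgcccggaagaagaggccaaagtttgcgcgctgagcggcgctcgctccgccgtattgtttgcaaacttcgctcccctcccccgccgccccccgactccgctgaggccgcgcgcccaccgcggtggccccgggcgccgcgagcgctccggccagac
Lgr4, chr2:109917397-109917646: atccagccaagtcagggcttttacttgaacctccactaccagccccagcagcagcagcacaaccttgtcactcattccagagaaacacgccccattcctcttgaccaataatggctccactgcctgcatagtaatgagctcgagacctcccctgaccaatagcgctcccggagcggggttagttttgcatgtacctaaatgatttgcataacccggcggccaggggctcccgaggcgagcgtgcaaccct
Rnf43, chr11:87662837-87663086: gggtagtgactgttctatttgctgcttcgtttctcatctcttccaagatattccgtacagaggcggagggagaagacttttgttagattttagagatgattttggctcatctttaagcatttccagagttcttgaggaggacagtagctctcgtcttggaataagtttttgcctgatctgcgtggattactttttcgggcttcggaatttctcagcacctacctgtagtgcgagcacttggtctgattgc
Axin2, chr11:108920099-108920348: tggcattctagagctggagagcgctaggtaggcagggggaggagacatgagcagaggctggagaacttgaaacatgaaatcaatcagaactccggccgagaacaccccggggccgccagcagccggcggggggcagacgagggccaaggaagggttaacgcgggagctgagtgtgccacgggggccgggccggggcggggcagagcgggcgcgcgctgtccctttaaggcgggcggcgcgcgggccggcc
Wnt11, chr7:98834862-98835111: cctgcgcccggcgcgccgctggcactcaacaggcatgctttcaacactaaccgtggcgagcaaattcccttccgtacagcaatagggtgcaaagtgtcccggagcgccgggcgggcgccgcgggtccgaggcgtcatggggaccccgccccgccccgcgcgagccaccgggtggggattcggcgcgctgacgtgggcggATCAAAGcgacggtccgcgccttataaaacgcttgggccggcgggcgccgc
A further window of Wnt11, at an inner start, held none. In cKO the deposited transcripts of the inner start had means of 0.587 and 0.163 scaled FPKM. Those of the printed start had means of 0.451 and 0. In cKO 1 and cKO 3 the printed start held the larger part of Wnt11, at 71.2% and 56.9%. The division of reads among overlapping transcripts can shift these values. Of the 6 windows printed, that of Fzd7 held a TCF/LEF word, starting 130 bases before the start, and that of Wnt11 held one at 51 bases. The other 4 held no such word. Among the 30 matched windows of the 26 members, 5 held such a word (Fzd7, Sp5, Wnt11, Dkk1 and Tcf7l2), and 14.8% of all 32851 RefSeq windows of this length did. The word CAGACA, which contains the CAGA core bound by SMAD3, was in 1 member window, that of Sfrp2, and in 17.1% of all windows. The member windows were rich in G and C, with a median of 65.2% and 16 CpG, against 52.4% and 6 over all windows. That of Fzd10 stood at 76.4% with 37 CpG and that of Rnf43 at 44.4% with 8.

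Frizzled receptors, the 7-pass membrane receptors of Wnt ligands, held the member with the lowest fold change, Fzd10. Of 10 genes, 8 were tested, and 3 were lower and 0 higher in cKO. Summed over the 10 genes, the level was 51.5, 60.01 and 61.3 scaled FPKM in controls 1 to 3, against 32.9, 27.1, 43.6, 34.2 and 32.1 in cKO 1 to 5, with no overlap. In control the order was Fzd1, Fzd7, Fzd6 and Fzd10 at means of 15.5, 12.4, 11.6 and 7.70. In cKO it was Fzd1, Fzd6, Fzd7, Fzd8 and Fzd5 at 10.1, 8.43, 5.26, 3.35 and 2.88, and Fzd10 stood at 1.59. In control the libraries of neighbours in this order overlapped, except Fzd6 and Fzd10. Fzd10 therefore made up 13.3% ± 1.28 (SD, n = 3) of the summed Frizzled level in control and 4.67% ± 1.23 (SD, n = 5) in cKO.

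Fzd10 (chr5:128601106-128604093 on mm10, 1 transcript) was at 6.23, 7.91 and 8.97 scaled FPKM in controls 1 to 3, against 0.895, 1.21, 2.08, 1.90 and 1.88 in cKO 1 to 5. Every cKO library was far below every control, cKO 1 the most. The mean fell from 7.70 ± 1.38 (SD, n = 3) to 1.59 ± 0.513 (SD, n = 5), 4.83-fold lower, and the log2 fold change was -1.76 ± 0.19 (limma adjusted p = 0.00113). It stayed between -2.25 and -1.55 and past the threshold in all 21 alternatives.

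Fzd2 (chr11:102604431-102608058), a receptor linked in other tissues to Wnt5a signals, was low in the epithelium but fell by a similar factor. Its values were 2.59, 3.25 and 3.65 in control and 0.331, 0.587, 1.06, 0.876 and 0.621 in cKO 1 to 5, so the groups were well apart. The mean was 4.56-fold lower, at 0.694 ± 0.28 against 3.16 ± 0.536, for a log2 difference of -1.30 ± 0.17 (limma adjusted p = 0.0024). The call held in all 20 alternatives in which Fzd2 met the filter, which it met here through the controls.

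Fzd7 (chr1:59482147-59486955), the receptor of the promoter shown above with a TCF/LEF word, was at 12.4, 12.9 and 11.9 in control. In cKO 1 to 5 it was at 7.59, 4.34, 7.13, 3.01 and 4.22, so all 5 lay below the controls but spread over a wider range. The mean fell from 12.4 ± 0.475 to 5.26 ± 2.00, 2.35-fold lower (log2 fold change -1.15 ± 0.24, limma adjusted p = 0.0166). The call was lost without control 2 (adjusted p = 0.0818), without control 3 (0.0692) and with stromal and muscle markers as covariate (-0.92, adjusted p = 0.0841).

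The other Frizzled genes did not pass. Fzd1 was at 12.7, 16.5 and 17.3 in control and 9.48, 7.33, 14.6, 9.08 and 9.88 in cKO 1 to 5, where cKO 3 alone reached into the control range (log2 fold change -0.60 ± 0.19, limma adjusted p = 0.0727). It was called lower without cKO 3 (adjusted p = 0.0139), with TPM (0.0370) and with array weights (0.0082). Fzd6, which acts in planar cell polarity and was among the 3 most abundant, was at 11.6 ± 1.33 in control and 8.43 ± 1.87 in cKO (adjusted p = 0.115). Fzd5 had the largest positive value, at 1.93 ± 0.546 against 2.88 ± 0.416 (log2 fold change 0.42 ± 0.15, adjusted p = 0.0991). With array weights both passed (adjusted p = 0.0299 for Fzd6 and 0.0380 for Fzd5), and 17.8% of the exon bases of Fzd5 overlap a gene model on the other strand. Fzd8 (0.11, 95% interval -0.16 to 0.39) and Fzd4 (-0.31, interval -0.89 to 0.28) were low in both groups. Fzd3 and Fzd9 were at most 0.611 and 0.0682 and were not tested.

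**Figure D2:**
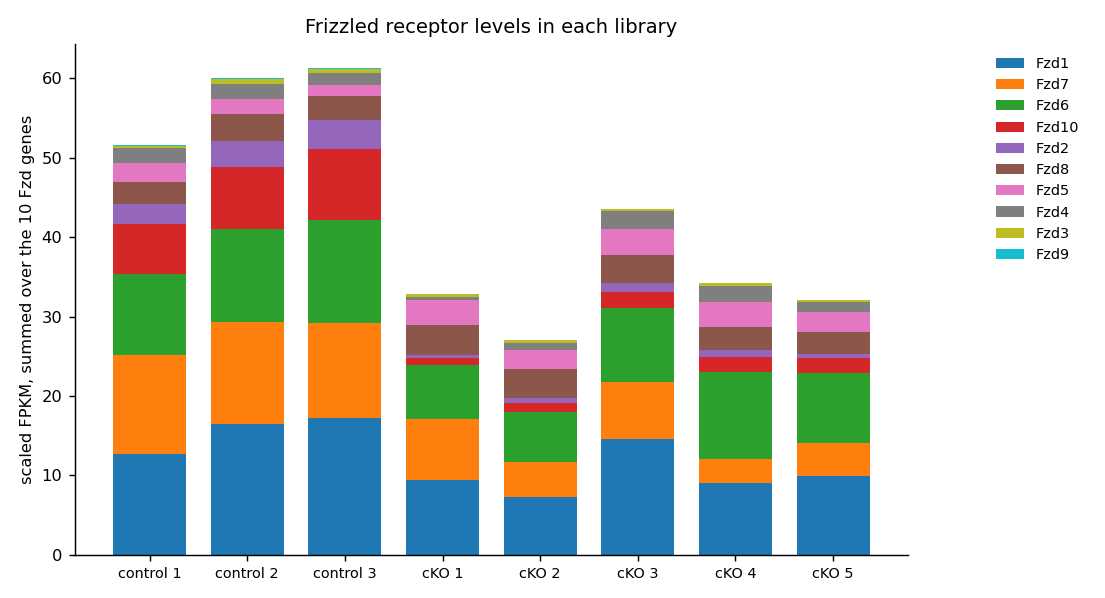
Scaled FPKM of the 10 Frizzled genes, stacked in each of the 3 control and 5 cKO libraries. The stack reaches 51.5 to 61.3 in control and 27.1 to 43.6 in cKO, and the red band of Fzd10 narrows from 6.23 to 8.97 in control to 0.895 to 2.08 in cKO.

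The co-receptor genes were both tested and neither passed. Lrp5, the more abundant, was at 36.1, 33.9 and 34.8 in control and 18.5, 30.5, 28.0, 29.5 and 26.2 in cKO 1 to 5. All cKO libraries were below the controls, cKO 1 by the most, but the log2 fold change of -0.40 ± 0.16 did not pass (limma adjusted p = 0.116). Groups did not overlap for 24.6% of all tested genes. Lrp6 was at 7.07 ± 0.109 against 5.96 ± 0.741 (adjusted p = 0.179). With array weights Lrp5 was called lower (adjusted p = 0.0384).

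In the R-spondin axis 2 of 5 tested members were lower, Lgr4 and Rnf43, and 0 higher. Lgr4 (chr2:109917647-110014257) encodes an R-spondin receptor that strengthens Wnt signals at the membrane. It was at 5.86, 6.70 and 6.34 in controls 1 to 3, against 2.09, 2.46, 3.66, 3.32 and 2.92 in cKO 1 to 5. The groups were apart, with little spread among the controls. The mean fell 2.18-fold, from 6.30 ± 0.421 to 2.89 ± 0.636 (log2 fold change -0.92 ± 0.14, limma adjusted p = 0.00531), and the call held in all 21 alternatives.

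Rnf43 (chr11:87663087-87735539), a ubiquitin ligase that removes Frizzled receptors from the surface and is itself a Wnt target, was at 6.67, 8.54 and 9.40 in control. In cKO 1 to 5 it was at 4.71, 6.01, 5.54, 5.0 and 5.33, all below the lowest control. The mean was 1.54-fold lower, 5.32 ± 0.499 against 8.20 ± 1.40 (log2 fold change -0.54 ± 0.12, limma adjusted p = 0.0218). It lost its call without control 2 (adjusted p = 0.11) and without control 3 (0.109). Its relative Znrf3 was lower in level, at 2.22 ± 0.518 against 1.6 ± 0.34, and did not pass (adjusted p = 0.211), though it was called with array weights (0.0404).

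Lgr5, a stem cell marker of many epithelia and a Wnt target, was too low for the test. It was at 0.0934, 0.773 and 0.687 in controls 1 to 3, against 0.0367, 0.10, 0.143, 0.0792 and 0.107 in cKO 1 to 5. Controls 2 and 3 stood above every other library, and control 1 lay within the cKO range. An estimated 9.04 to 209 fragments per library lay behind these values. Lgr6 stayed at or below 0.14 everywhere.

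The R-spondin genes themselves were spread widely within groups and did not pass. Rspo1 was at 1.96, 2.91 and 2.17 in control and 0.50, 1.76, 4.52, 0.289 and 0.761 in cKO 1 to 5, so that the highest and the lowest library were both cKO (limma adjusted p = 0.373). Without cKO 3 it was called lower (log2 fold change -0.92, adjusted p = 0.0456). Rspo3 was highest in control 1 at 3.63, where stromal and muscle markers were also highest, against 0.936 and 1.8 in the other controls and 0.266 to 1.45 in cKO (adjusted p = 0.201).

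**Figure D3:**
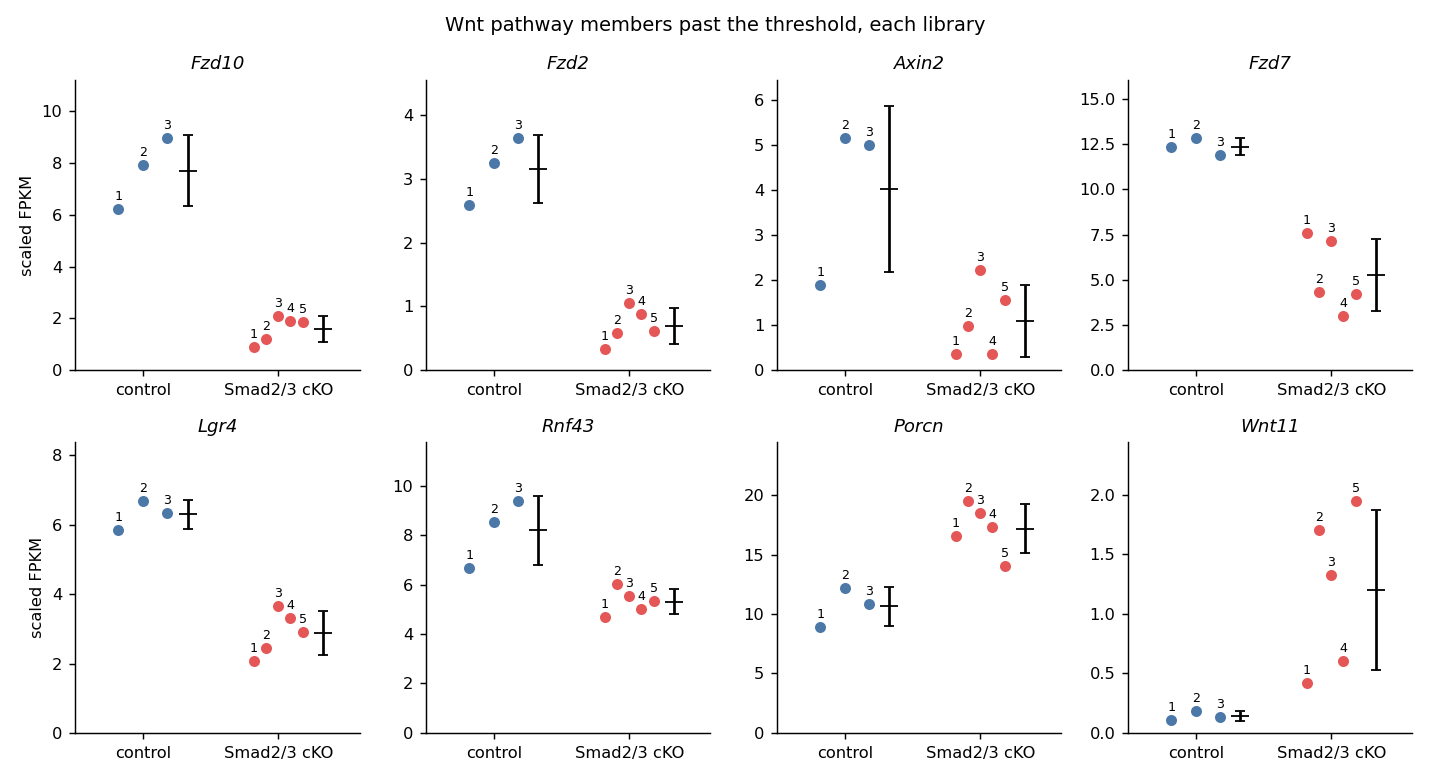
Scaled FPKM (y axis) of the 8 called members in each library; numbers name the libraries and bars give the mean ± SD of 3 control and 5 cKO libraries. The groups are apart for every gene except Axin2, where cKO 3 at 2.22 lies above control 1 at 1.90. The 8 genes were picked by their calls in this same comparison. Groups did not overlap for 9 of the 35 tested members and for 24.6% of all tested genes.

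Feedback genes are transcribed in response to beta-catenin and are often read as reporters of the pathway. Of 4, 3 were tested, and 1 was lower and 0 higher. Axin2 (chr11:108920349-108950781), the scaffold of the destruction complex that Wnt signals induce, was at 1.90, 5.17 and 5.01 in controls 1 to 3. It was at 0.351, 0.984, 2.22, 0.362 and 1.57 in cKO 1 to 5. Control 1 was well below the other controls, and cKO 3 lay above it, so the groups overlapped. The mean was 3.67-fold lower, 1.10 ± 0.806 against 4.03 ± 1.84 (log2 fold change -1.27 ± 0.36, limma adjusted p = 0.0478). Axin2 met the filter through the controls. Its call was the least stable of the 8 and was lost in 13 of 20 alternatives. Among single libraries it was lost without control 2 (adjusted p = 0.199), control 3 (0.187), cKO 1 (0.0867), cKO 2 (0.0783), cKO 4 (0.0784) or cKO 5 (0.061). The direction held in all 20, and in the main title series alone the log2 fold change was -1.08 (0.141). With stromal and muscle markers as covariate the log2 fold change of Axin2 was -1.40 (limma adjusted p = 0.105). With the title series as a term it was -1.08 (0.118). An antisense gene shares 3.80% of the annotated exon bases of Axin2, and the use of strand in the counting is not given in the sources used here.

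Sp5 and Notum, a transcription factor and a secreted enzyme that strips the lipid from Wnt ligands, did not pass. Sp5 was at 0.304, 1.12 and 1.79 in control and 0.207, 0.399, 1.46, 0.222 and 1.01 in cKO 1 to 5 (limma adjusted p = 0.524). As for Axin2, control 1 was low among the controls and cKO 3 was the highest cKO library. Notum was at 0.753, 1.63 and 1.6 in control and 0.568, 1.24, 0.868, 1.03 and 1.39 in cKO 1 to 5, with control 1 again the lowest control and the groups overlapping (adjusted p = 0.51), and 29.4% of its annotated exon bases overlap an antisense gene. Nkd1, an inhibitor that acts on Dishevelled, was below 1 in every library and was not tested.

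Among TCF and LEF factors, which bind target genes with beta-catenin, 2 of 4 were tested and neither passed. Tcf7 was at 2.56, 9.84 and 11.3 in controls 1 to 3, against 0.657, 1.53, 6.20, 0.741 and 1.77 in cKO 1 to 5. As for Axin2 and Sp5, control 1 was low and cKO 3 was high. The mean of 2.18 ± 2.30 was 3.63-fold below the 7.91 ± 4.69 of control, and the log2 difference was -1.53 ± 0.55 (limma adjusted p = 0.0982). It was called lower without control 1 (-2.09, adjusted p = 0.0464), without cKO 3 (-1.88, 0.0244) and with array weights (0.0108). Tcf7l2 differed little, at 4.48 ± 0.263 against 4.06 ± 0.19 (log2 fold change -0.11, 95% interval -0.31 to 0.08, adjusted p = 0.38). The deposited split into transcripts was uneven. A transcript was at 1.19, 1.70 and 1.79 in control and is listed at 0 in all 5 cKO libraries. Another was at 1.49 and 0.957 in controls 1 and 2, listed at 0 in control 3, and at 1.26 to 2.45 in cKO. A listed 0 can come from the division of reads among overlapping transcripts, and no fold change is given. Tcf7l1 and Lef1 were not tested; their control means were 0.663 and 0.0583.

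**Figure D4:**
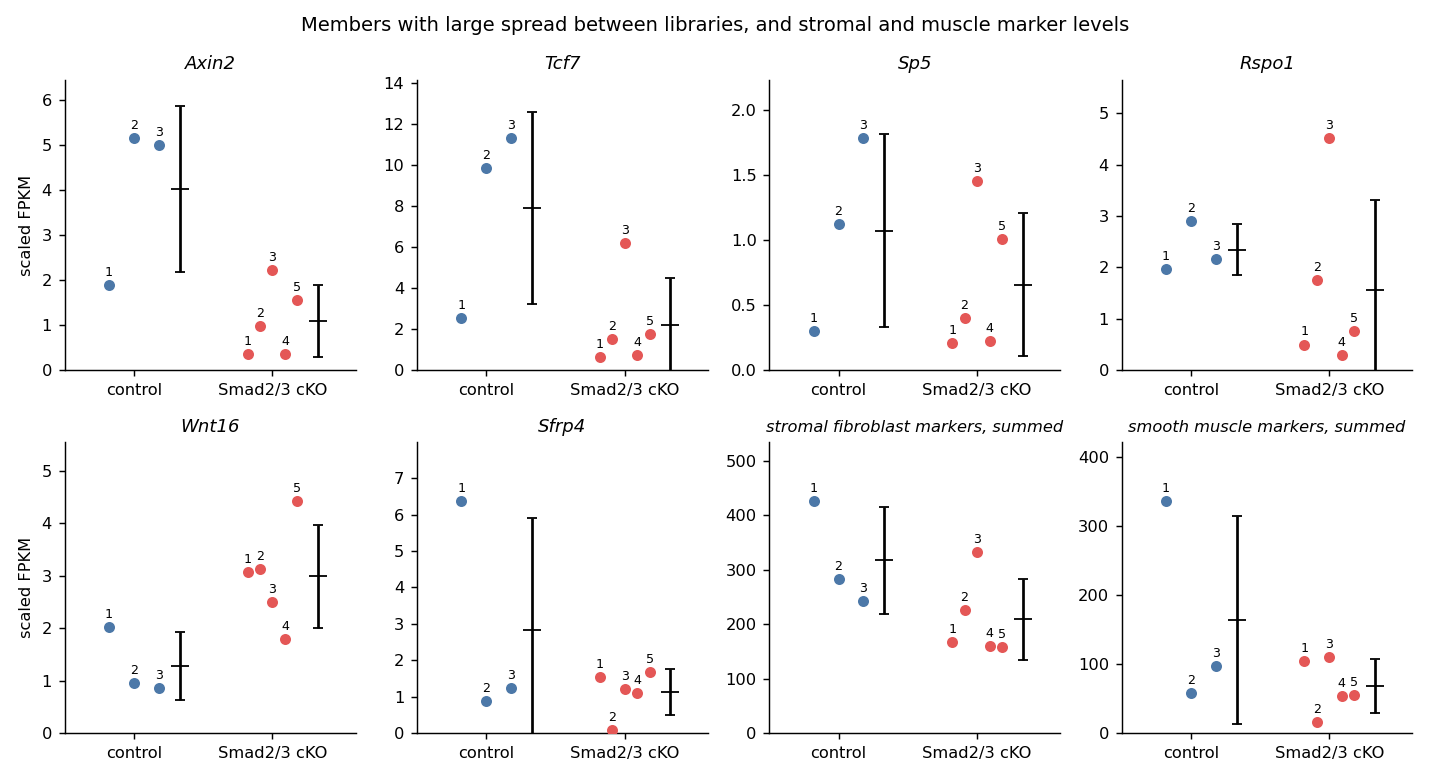
Scaled FPKM (y axis) in each library of 6 members with a large spread between libraries, and of the summed stromal fibroblast and smooth muscle markers; bars give the mean ± SD, with the part below 0 not drawn. Axin2, Tcf7 and Sp5 were lowest among the controls in control 1 and highest among cKO in cKO 3, while Sfrp4 and the muscle markers were highest in control 1.

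Of the roles, the destruction complex and beta-catenin genes had the median log2 fold change nearest to 0, at -0.037. None of 4 was called (limma), 1 had an unadjusted p below 0.05 (Gsk3b), and with array weights Gsk3b was called. Beta-catenin (Ctnnb1) was the most abundant member, at 471, 383 and 366 in control and 442, 430, 378, 467 and 451 in cKO 1 to 5. The ranges overlapped almost entirely, and the log2 fold change of 0.10 had a 95% interval of -0.20 to 0.40. Its sign changed under 2 of 21 alternatives, and 14.6% of its annotated exon bases overlap Ulk4 on the other strand. Axin1 (-0.07, interval -0.27 to 0.14) and Apc (-0.01, interval -0.31 to 0.29) were close in level, and their signs changed in 1 and 7 alternatives. Gsk3b was at 13.1, 12.6 and 12.0 in control and at 8.29 to 11.4 in cKO, with no overlap, but its log2 fold change of -0.28 ± 0.11 did not pass (adjusted p = 0.111; 0.0386 with array weights).

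Of the ligand genes, 6 of 8 were tested, and 1 was higher and 0 lower. Wnt4, Wnt7a and Wnt7b made up most of the ligand RNA in both groups, with mean levels of 28.7, 23.8 and 23.5 in control and 25.4, 16.9 and 16.1 in cKO. These levels overlapped between libraries, so their order is not settled. Wnt4 was at 22.6, 33.8 and 29.8 in control and 32.0, 28.5, 26.6, 18.7 and 21.3 in cKO 1 to 5, spread alike in both groups (limma adjusted p = 0.558). Its log2 fold change was -0.18, with an interval of -0.61 to 0.26.

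Wnt7a, the ligand of the uterine lining epithelium, was at 22.4, 22.2 and 26.7 in control and 25.9, 13.3, 18.3, 13.4 and 13.8 in cKO 1 to 5. Of the cKO libraries cKO 1 alone was within the control range. The log2 fold change of -0.51 ± 0.21 did not pass (limma adjusted p = 0.143). It passed without cKO 1 (-0.67, adjusted p = 0.0222), in the main title series alone (-0.62, 0.0426), with TPM (0.0372) and with array weights (0.0428). Wnt7b was at 19.0, 29.0 and 22.6 in control; cKO 1, 2 and 5 were lower at 10.3, 11.3 and 12.5, while cKO 3 and 4 were within the control range at 25.1 and 21.0 (adjusted p = 0.203; 0.0373 with array weights).

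Wnt11 (chr7:98835112-98854747), a ligand best known for non-canonical signals, was barely present in control and higher in every cKO library. It was at 0.105, 0.184 and 0.133 in controls 1 to 3, against 0.417, 1.70, 1.32, 0.608 and 1.95 in cKO 1 to 5. The groups were apart, and the cKO libraries spread widely, with cKO 1 and cKO 4 the lowest. The mean was 8.56-fold higher, 1.2 ± 0.671 against 0.140 ± 0.0398, and the log2 fold change of 0.89 ± 0.25 just passed (limma adjusted p = 0.0487). It was tested only because 3 cKO libraries reached the filter, which no control did. An estimated 15.1 to 264 fragments per library lay behind these values. The call was lost in 7 of 15 alternatives, among them without control 1 (limma adjusted p = 0.121), control 2 (0.149) or control 3 (0.152). It was also lost with stromal and muscle markers as covariate (0.168) and with the title series as a term (0.0689). The log2 fold change lay between 0.81 and 2.26 in these 15. In the main title series alone Wnt11 did not meet the filter, and 8.80% of its exon bases overlap a pseudogene on the other strand.

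Wnt16 and Wnt5a had positive fold changes but did not pass. Wnt16 was at 2.02, 0.962 and 0.858 in control and 3.07, 3.14, 2.50, 1.79 and 4.44 in cKO 1 to 5. Control 1, the library with the highest stromal and muscle markers, was the highest control, and cKO 4 was the only cKO library below it (log2 fold change 0.81 ± 0.24, limma adjusted p = 0.0529). Without control 1 Wnt16 passed (1.03, adjusted p = 0.0378), as it did without cKO 4 (0.0304), with array weights (0.00796) and with a pseudocount of 0.1 (0.0472). Wnt5a, a ligand known from the uterine stroma, was at 4.13, 2.32 and 2.05 in control and 4.71, 4.77, 3.64, 7.63 and 4.62 in cKO (0.67 ± 0.23, adjusted p = 0.0834). Without control 1 it passed (0.90, adjusted p = 0.0437), as it did with array weights (0.0116). The stromal markers summed to 428, 282 and 242 in controls 1 to 3, and to 157 to 332 in cKO, with cKO 3 the highest of these. With stromal and muscle markers as covariate the log2 fold change of Wnt5a was 0.74 (limma adjusted p = 0.167). That of Wnt16 was 0.95 (0.0896), and neither passed. Wnt6 and Wnt10a were at most 0.0513 and 0.0102 and were not tested.

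**Figure D5:**
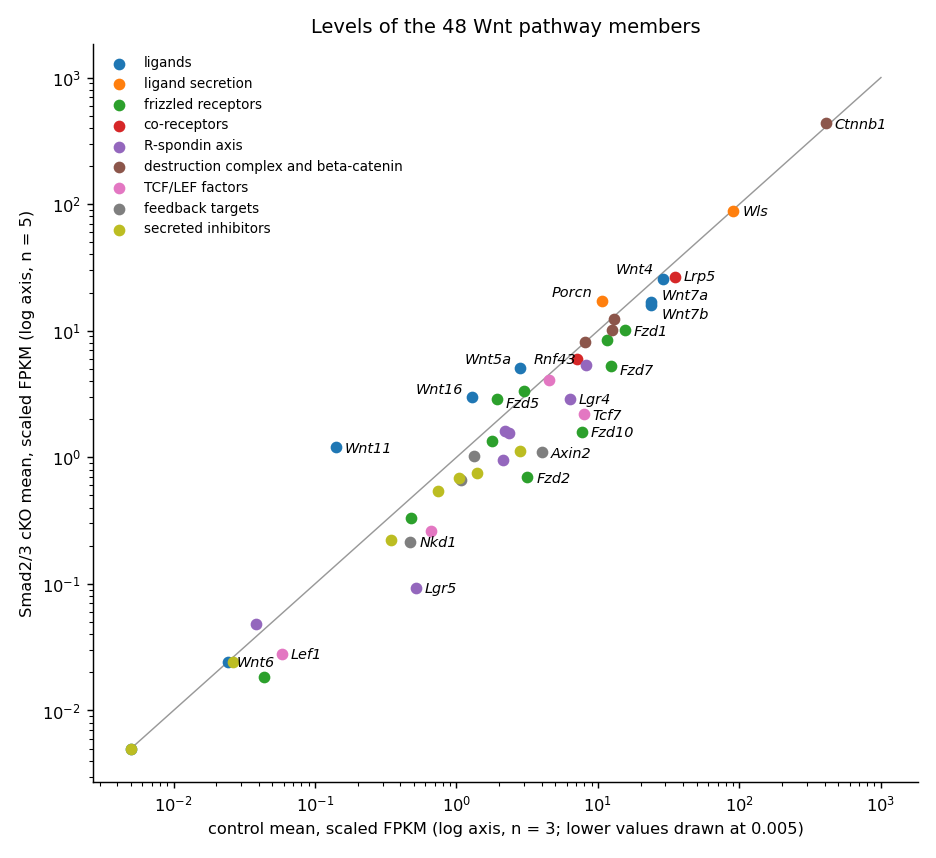
Mean scaled FPKM of each of the 48 members in control (x axis, log, n = 3) and cKO (y axis, log, n = 5), coloured by role, with a line of equal levels; means below 0.005 are drawn there. Ctnnb1 and Wls lie near the line at the top, Fzd10 and Fzd2 below it, and Wnt11 farthest above it.

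Of the secretion genes, Porcn was higher and Wls was not called. Porcn (chrX:8193846-8206525), the acyltransferase that attaches the lipid to Wnt ligands, was at 8.95, 12.2 and 10.8 in control and 16.6, 19.5, 18.5, 17.3 and 14.1 in cKO 1 to 5, with no overlap. The mean was 1.61-fold higher, 17.2 ± 2.09 against 10.7 ± 1.63 (log2 fold change 0.64 ± 0.13, limma adjusted p = 0.0152). The call was lost without control 1 (0.53, adjusted p = 0.051), without control 3 (0.0651), with TPM (0.47, 0.088) and with stromal and muscle markers as covariate (0.0797). For its most abundant transcript alone the log2 fold change was 0.30 (0.475). Wls, the carrier that brings Wnt ligands to the cell surface, was at 82.8, 90.8 and 97.5 in control and 88.2, 71.9, 88.8, 88.0 and 107 in cKO (log2 fold change -0.03, 95% interval -0.33 to 0.27). Its sign changed under 4 of 21 alternatives.

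Secreted inhibitors, which keep Wnt ligands or co-receptors from signalling, were scarce. Of 7, 3 were tested and none was called by limma, with 0 at an unadjusted p below 0.05. Sfrp4 was at 6.39 in control 1, 0.885 and 1.22 in controls 2 and 3 and 1.55, 0.0869, 1.22, 1.10 and 1.69 in cKO 1 to 5. Like the muscle markers, it was highest in control 1, and without that library its log2 fold change was -0.01 in place of -0.63 (limma adjusted p = 0.378 with all libraries). With stromal and muscle markers as covariate it was 0.09. Sfrp1 was at 1.04 ± 0.292 against 0.687 ± 0.324 and Sfrp2 at 1.40 ± 0.56 against 0.753 ± 0.59, and neither passed. Sfrp2 was called lower without cKO 3 (-0.66, adjusted p = 0.0494). Dkk1 was listed at 0 in 7 libraries and at 0.0191 in cKO 2, Dkk2 and Dkk3 stayed below 1 in every library, and Sfrp5 was at most 0.035.

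Of 79 further pathway genes, 44 were tested, and 7 were lower and 0 higher. The 7 are 15.9% of the 44, against 6.98% lower and 7.27% higher over all tested genes. An unadjusted limma p below 0.05 was found for 14. The median log2 fold change of the 44 was -0.15. Of the 7 lower genes, 3 belong to the list of other receptors and surface modulators. Gpc4, a glypican that binds Wnt and other growth factors, fell from 18.6 ± 3.56 to 5.66 ± 1.31 scaled FPKM (SD, n = 3 and 5; log2 fold change -1.57 ± 0.19, limma adjusted p = 0.00175), with every cKO library below every control. Ror2, a Wnt5a receptor, was at 9.09 ± 3.16 against 4.04 ± 1.17 (-0.98 ± 0.23, adjusted p = 0.0252), with cKO 4 at 6.10 just above control 2 at 6.06. Ptk7, a co-receptor of planar polarity, was at 20.5 ± 1.0 against 14.1 ± 2.64 (adjusted p = 0.0436), and lost its call in 11 of 21 alternatives.

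The planar polarity genes Celsr2 and Vangl2 were also lower. Celsr2, an atypical cadherin, was at 17.0 ± 3.31 against 7.59 ± 2.34 (log2 fold change -1.10 ± 0.24, limma adjusted p = 0.0192), and Vangl2 at 6.63 ± 0.432 against 4.57 ± 0.551 (-0.46 ± 0.11, 0.0234). The other 3 tested genes of this list did not pass. Celsr2 lost its call without control 1 (0.0666) or control 3 (0.0869), Vangl2 without control 2 (0.124) or control 3 (0.101), and Ror2 without control 1 (0.077), control 3 (0.0969), cKO 1 (0.052) or cKO 5 (0.0518). Ptk7 lost it without any control (0.0999 to 0.163), cKO 2 (0.0734), cKO 4 (0.0537) or cKO 5 (0.0805). All 4 lost it with stromal and muscle markers as covariate. In the main title series alone Ror2 (adjusted p = 0.0927), Ptk7 (0.0757) and Vangl2 (0.0582) lost it.

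Dkkl1, a secreted relative of the Dickkopf inhibitors, was at 17.1, 14.0 and 15.6 in control and 8.35, 4.21, 2.70, 6.15 and 3.20 in cKO 1 to 5, 3.16-fold lower (log2 fold change -1.57 ± 0.28, limma adjusted p = 0.00976). Its call was lost without control 3 (0.0516). Ephb2, a receptor tyrosine kinase gene and Wnt target in the intestine, was at 31.0, 33.5 and 35.0 in control and 16.3, 20.7, 19.9, 15.3 and 16.1 in cKO (-0.88 ± 0.12, 0.00287), and kept its call in all 21 alternatives, as did Gpc4. The other target genes tested did not pass. The most abundant, Mmp7, was at 510 ± 192 against 336 ± 157 (adjusted p = 0.36). None of the 15 tested cytoplasmic genes, which include the Dishevelled and casein kinase 1 genes, and none of the 7 tested nuclear cofactor genes was called by limma; 2 of each had an unadjusted p below 0.05. The most abundant of these were Csnk1a1 at 89.0 ± 4.19 against 98.0 ± 11.4 and, of the nuclear genes, Bcl9 in control (49.4 ± 9.71 against 34.6 ± 7.18) and Ctbp1 in cKO (47.1 ± 0.887 against 44.7 ± 2.59). In the list of other receptors and surface modulators, Ryk was the most abundant at 31.2 ± 1.98 against 33.9 ± 3.67. Of the 13 other Wnt and R-spondin genes none reached the filter; the most abundant, Wnt9a, was at 0.874 ± 0.0218 against 0.567 ± 0.182.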

How the data were processed

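RNA of 8 libraries was compared, 3 control and 5 cKO, grouped by genotype label. TopHat and Cufflinks were run on mm10 after bcl2fastq 1.8.3, per the submitters' processing notes. The authors deposited FPKM per RefSeq transcript in each library, per the file headers with a 95% interval and a status. The deposited coverage signal, the mean depth over a transcript per the file headers, was not used for any result. FPKM was summed over transcripts per symbol, 15 genes with a status other than OK were left out, and libraries were scaled by the median ratio over 9939 genes (factors 0.924 to 1.06). Depth was estimated from the width of the FPKM intervals of long genes with 1 transcript, since no read counts were used, and limits low genes most.

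The test used genes that reached a scaled FPKM of 1 in 3 or more libraries. It was limma (version 3.58.1, R 4.3.3), two-sided and with a trended variance, applied to the log2 of scaled FPKM plus 1; p-values were adjusted by Benjamini-Hochberg over all genes tested. The fit was tested on simulated data with the same spread in both groups and with changes only in genes of higher control level. That simulation therefore says nothing about low members such as Wnt11, Fzd2 and Axin2. Members and lists, including the markers, were chosen with earlier results of these data known. Called members are given in full, as is the most abundant uncalled member of each role, and others are summarised or named where an alternative changed their call. Up to 8 called genes and the most abundant gene of each list stand for the other pathway genes. Alternatives were 2 other scalings and no scaling, another pseudocount (0.1), no filter and a filter at 5, keeping genes of any status, no variance trend, array weights, leaving out each library or the other title series, a covariate for title series or for stromal and muscle markers, and the most abundant transcript.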

Additional observations from a re-analysis of the deposited data

Results flagged for a closer look

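In the cKO group, 42 genes (members tested and other pathway genes called) were examined for a library far from the other 4, and 4 were found. The rule was a Dixon ratio, the gap to the nearest library over the range, above 0.71. It was applied to scaled FPKM without logs, unlike the limma fits. Chance gives about 1 in 20 per gene only if libraries spread normally on that scale, which was not tested. Wnt5a was at 7.63 scaled FPKM in cKO 4, against 3.64 to 4.77 in the other cKO libraries. Ror2, which encodes a Wnt5a receptor, was at 6.10 in the same library, against 3.20 to 3.82. Tcf7 was at 6.20 in cKO 3, against 0.657 to 1.77. Sfrp2 was at 1.76 in cKO 3, against 0.224 to 0.668. The stromal markers summed to 332 in cKO 3, the highest of the cKO libraries, and to 160 in cKO 4; their part in these values was not tested.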

How the results depend on the processing

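Of the 8 called members, Fzd2, Fzd10 and Lgr4 kept their call in every alternative in which they were tested, and none of the 8 changed sign. Fzd2 met the filter through the controls, so its call is not independent of the filter, and it was not tested with the filter at 5. Of the 27 not called, 14 gained no call and 6 changed sign. Of the members, 2 were higher; this count was 1 without scaling, with TPM, without a filter, with the filter at 5, in the main title series alone and with the title series as a term, 0 with stromal and muscle markers as covariate or the most abundant transcript, and 5 with array weights. It ranged from 0 to 3 when 1 library was left out. The count of lower members, 6, was 14 with array weights and 3 to 10 with 1 library left out. The other pathway genes lower, 7, became 14 with TPM, 12 with quantile normalization and 3 with the stromal and muscle term, and 2 to 8 with 1 library left out. Over all genes, 823 were higher and 790 lower; these became 510 and 1662 with TPM, 1793 and 1733 with array weights and 357 and 305 with the stromal and muscle term, and 238 to 935 and 176 to 892 with 1 library left out. The fewest calls came without control 2 (238 and 186) or control 3 (243 and 176); without control 1 there were 578 and 437. With a pseudocount of 0.1, 37.5% of the members' calls were higher. Fewer libraries enter the fits with 1 left out; for the other settings the cause was not tested. No paired analysis was possible because the replicate numbers follow accession order and pair no libraries. Depth limits the low members most: Wnt11 rests on an estimated 15.1 fragments in control 1.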
